A study of Homo sapiens with 6 samples.

Results

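Of the 31444 H3K27ac peaks called in THP-1, a leukaemia cell line of monocytic type from human, 2513 (7.99%) lay at least 20000 bp from every H3K27ac peak of the M2 list. They are called remote peaks here. They were chosen by position alone, as THP-1 peaks whose edges were separated from the nearest M2 peak of the same chromosome by a gap of that size, with the Y chromosome left out. The series profiled YY1, H3K27ac and input DNA in THP-1 cells, labelled as human monocytes, and in cells labelled M2 macrophages, with 1 library of each kind per cell type. Both were grown in RPMI medium with fetal bovine serum, and both H3K27ac libraries used the same antibody clone. How the M2 macrophages were derived or polarised is not stated in the labels. Peaks of the YY1 and input libraries were not used here. Each list rests on 1 library, so differences between the lists have no measure of replicate spread and carry no p-value. A THP-1 peak without an M2 counterpart is a site called in 1 list and not in the other.

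H3K27ac is histone H3 acetylated at lysine 27. It marks active promoters and enhancers, and stretches of neighbouring acetylated sites are often found around genes that define a cell's identity. Monocytes differ from macrophages largely in which distal enhancers carry the mark, while many promoters carry it in both. A peak at a distance from every peak of the other list therefore lies in a neighbourhood with no called acetylation there. Acetylation at a site does not by itself tell which gene it acts on.

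The 7.99% of THP-1 peaks that were remote had an exact 95% binomial interval of 7.69 to 8.30. They were 32.4% (31.3 to 33.4) of the 7761 THP-1 peaks, 24.7% of the list, that overlapped no M2 peak. All intervals given for shares cover counting error only and take peaks as independent. They covered 1.78 Mb, or 6.35% of the THP-1 covered length. In the reverse direction 18029 of 56420 M2 peaks, 32%, lay as far from any THP-1 peak, so remote peaks were a smaller part of the THP-1 list than their counterparts were of the M2 list. The share depended on the length of the M2 list: with the M2 list shortened to the size of the THP-1 list, by highest -log10 q, 5564 THP-1 peaks or 17.7% were remote. With only THP-1 peaks of a -log10 q of at least 10, 644 or 4.86% were, and with a gap of at least 50000 bp 1240 or 3.94%. The gap between a remote peak and the nearest M2 peak had a median of 49.1 kb (interquartile range 29.8 to 102.7) and reached 1937 kb. The M2 peak nearest to a remote peak itself overlapped a THP-1 peak in 42.0% of cases (40.1 to 44.0), against 37.0% (36.6 to 37.4) of all M2 peaks.

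Fold enrichments of the 3 peaks closest to the limit on either side covered similar ranges. The closest inside were chr8:68660272-68660950 at 20028 bp, chr1:54850467-54851129 at 20052 bp and chr20:42353364-42353708 at 20077 bp. Their fold enrichments were 4.95, 4.35 and 2.29. The closest outside were chr6:166726008-166726875 at 19984 bp, chr16:68319912-68320774 at 19979 bp and chr5:66563737-66564323 at 19959 bp, with fold enrichments of 5.15, 4.78 and 2.72.

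Remote peaks were found on all 23 chromosomes analysed, from 16 on chromosome 22 to 266 on chromosome 1. As a share of a chromosome's THP-1 peaks they were most frequent on chromosome X, with 108 of 774 or 13.95% (11.6 to 16.6). Chromosome 4 followed with 195 of 1399 or 13.9% (12.2 to 15.9), and the intervals of these chromosomes overlapped almost entirely. Chromosome 13 came next at 11.2% (8.91 to 13.8). The lowest shares were 2.32% (1.56 to 3.32) on chromosome 19 and 2.62% (1.51 to 4.22) on chromosome 22, below the interval of the whole list. The rule itself ties these shares to how densely M2 peaks lie. M2 peaks numbered 9.78 per Mb on chromosome X and 13.2 on chromosome 4, but 36.4 on chromosome 19 and 30.1 on chromosome 22.

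The order of chromosomes changed when only sequence open to a remote peak was counted. Between the first and last peaks of the chromosomes, 1952 of 2943 Mb, or 66.3%, lay at least 20 kb from any M2 peak, unsequenced gaps included. Remote peaks occurred there at 1.29 per Mb, while the remaining sequence held 29.2 THP-1 peaks per Mb. The rule places every THP-1 peak that overlaps an M2 peak in the remaining sequence, so this contrast was partly built in. Per Mb of such sequence, chromosome 17 was highest with 2.08 remote peaks (exact Poisson 95% interval 1.66 to 2.57). Chromosomes 15, 6 and 1 followed with 1.86 (1.51 to 2.28), 1.78 (1.53 to 2.05) and 1.78 (1.57 to 2.00). The lowest value was 0.857 on chromosome 11 (0.677 to 1.07), and chromosome X, highest by share, was second lowest at 0.865 (0.709 to 1.04). The intervals of chromosomes 17, 15, 6 and 1 overlapped each other, as did those of chromosomes X and 11, but the groups did not overlap one another. These intervals take each remote peak as a separate event, although 23.0% lay within 1 kb of another remote peak. They may therefore be too narrow. Copy number of the chromosomes in these cells was not measured, and its part in these values was not tested.

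**Figure D1:**
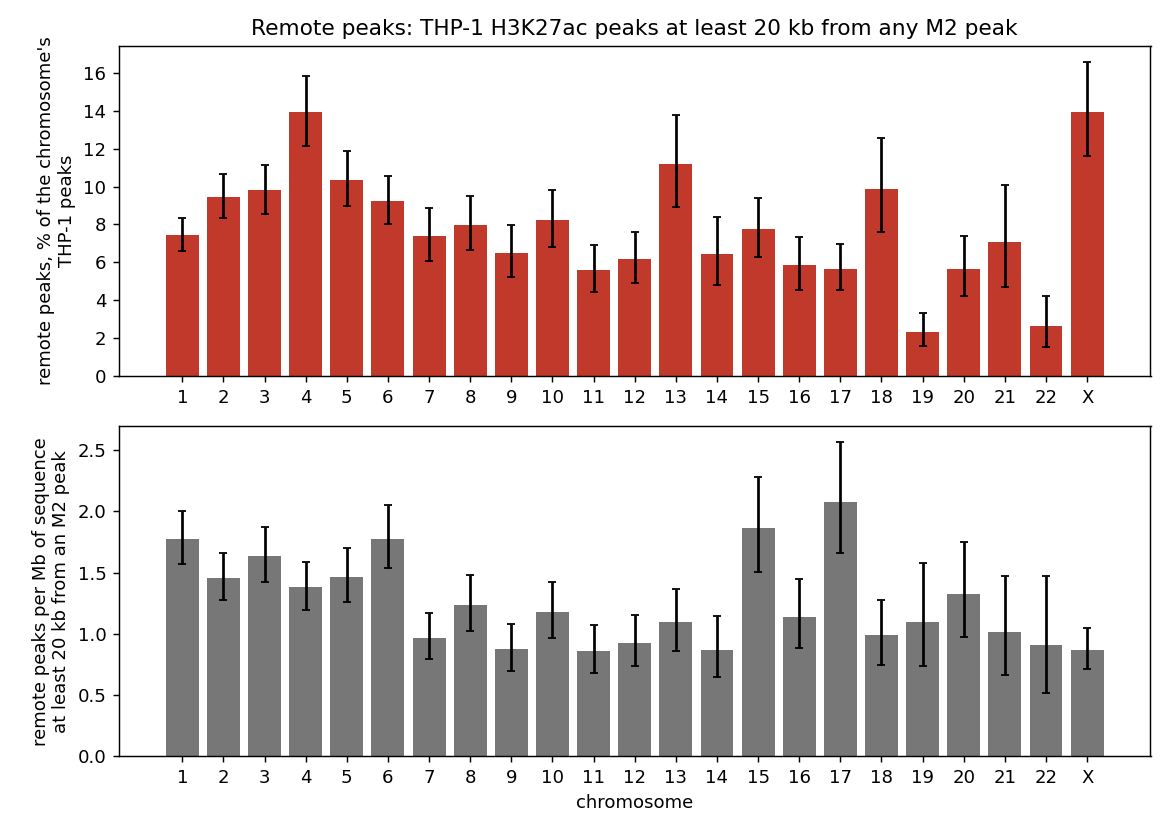
Remote THP-1 H3K27ac peaks by chromosome, with 1 library. The upper bars give remote peaks as a percentage of the chromosome's THP-1 peaks with exact 95% binomial intervals, and the lower bars give remote peaks per Mb of sequence at least 20 kb from any M2 peak with exact 95% Poisson intervals. Chromosome X stands at 13.95% in the upper panel and at 0.865 per Mb, near the bottom, in the lower one.

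Remote peaks were narrow. Their median width was 532 bp (95% interval of the median 520 to 544), and the range ran from 345 bp, the least width in the THP-1 list, to 4945 bp. THP-1-only peaks nearer than 20 kb to an M2 peak, 5248 in number, had a median of 539 bp (529 to 550), so the intervals of these groups overlapped. The 23683 THP-1 peaks that overlapped an M2 peak were wider, with a median of 712 bp (705 to 720). Peaks of at least 2000 bp numbered 63 among the remote peaks, 2.51% (1.93 to 3.20), against 7.27% (6.94 to 7.61) of the overlapping ones. Width was not part of the rule.

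The fold enrichment at the summit, deposited by the authors and read here as the signal over a local background, was higher in remote peaks than in the other groups. Whether that background came from the input libraries is not stated. Its median was 4.34 (4.31 to 4.39) in remote peaks, 3.95 (3.94 to 3.98) in nearer THP-1-only peaks and 3.49 (3.46 to 3.51) in overlapping ones. The number of fragments over the summit ran the other way. Solved from the deposited fold enrichment and p-value, it had a median of 19 fragments (interquartile range 15 to 28) in remote peaks, 23 (16 to 33) in nearer THP-1-only peaks and 51 (30 to 84) in overlapping ones. The higher fold thus came with fewer fragments and a lower background. At a low background a peak needs a higher fold enrichment to be called. How much of the difference in fold follows from this was not tested. Relative to the lowest value of the list, the local background had a median of 1.92 at remote summits, 2.69 at nearer THP-1-only summits and 7.05 at overlapping summits.

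Many remote peaks rested on little signal. Of the 2513, 1375 or 54.7% had at most 20 fragments over the summit, and 206 or 8.20% had at most 11. Low counts were also common in nearer THP-1-only peaks, where 20 fragments was the 42nd percentile and 11 the 4th. In overlapping peaks 20 fragments was the 11th percentile. The background was at the lowest of the list, within 2%, at 293 remote peaks, or 11.7% (10.4 to 13.0), against 6.04% (5.41 to 6.72) of nearer THP-1-only and 1.503% (1.35 to 1.67) of overlapping peaks. A -log10 q of at least 10 was reached by 644 remote peaks, 25.6% (23.9 to 27.4), by 24.3% (23.1 to 25.5) of nearer THP-1-only peaks and by 47.8% (47.2 to 48.4) of overlapping peaks. On that measure remote peaks and nearer THP-1-only peaks were not told apart.

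**Figure D2:**
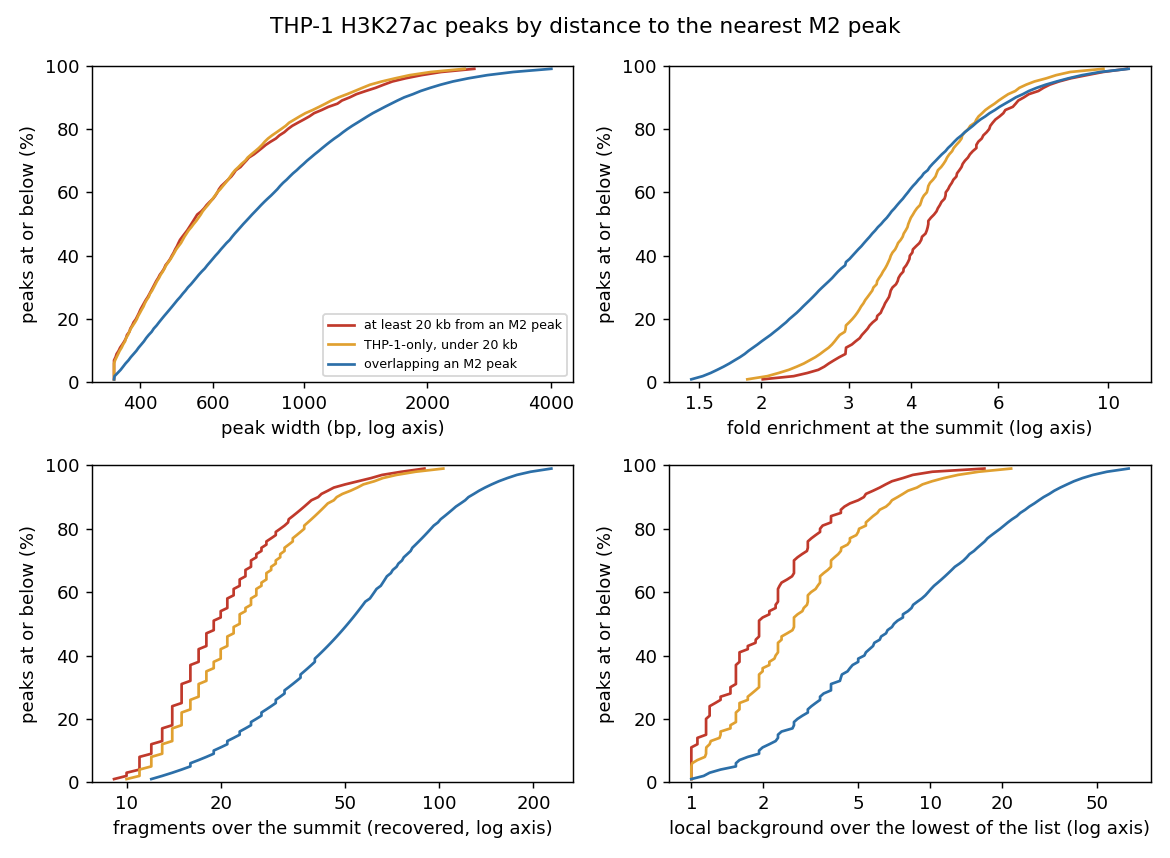
Cumulative distributions, from the 1st to the 99th percentile, of width, fold enrichment, fragments over the summit and local background for THP-1 peaks at least 20 kb from an M2 peak (red), nearer THP-1-only peaks (orange) and peaks overlapping an M2 peak (blue). All horizontal axes are logarithmic. Red and orange lie together for width, while red lies to the right for fold enrichment (median 4.34) and to the left for fragments (median 19) and background.

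Across the THP-1 list the share of remote peaks fell with peak significance and width, but not with fold enrichment. In the decile of highest -log10 q 81 of 3145 peaks, 2.58% (2.05 to 3.19), were remote, while 13.0% (11.8 to 14.2) of the second lowest decile and 9.41% (8.42 to 10.5) of the lowest were. The narrowest decile held 13.5% (12.3 to 14.7) and the widest 4.01% (3.35 to 4.75). By fold enrichment the lowest decile held 0.763% (0.490 to 1.13), the eighth 12.8% (11.6 to 14.0) and the highest 9.73% (8.72 to 10.8). Peaks of low background, frequent among remote peaks, can hardly be called at the lowest folds. The low share there was thus at least partly set by the calling threshold. The 81 remote peaks of the top decile each had a -log10 q of at least 27.1 and so were not weak calls.

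**Figure D3:**
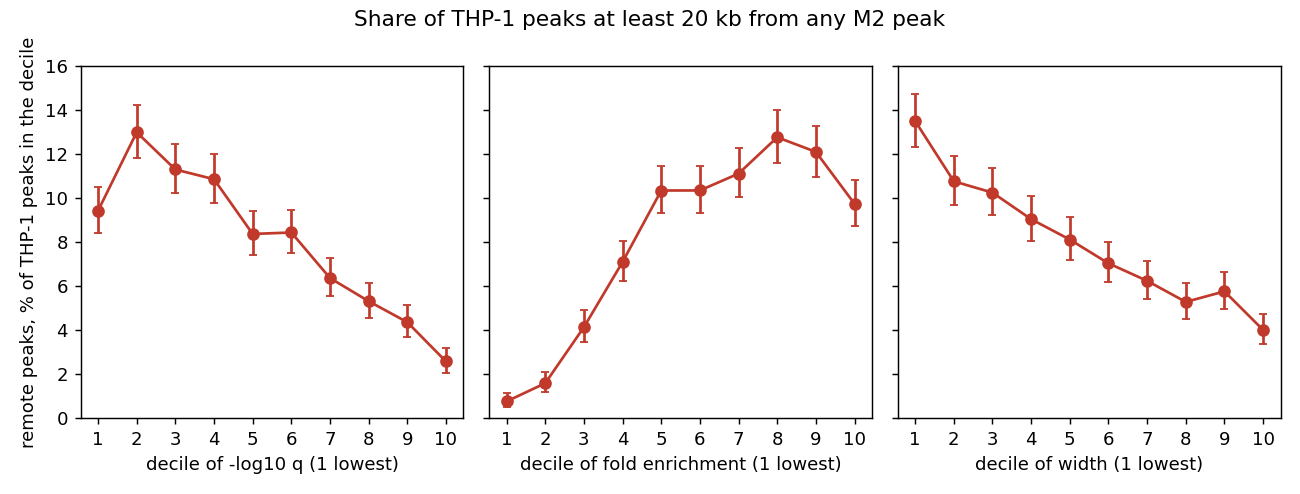
Share of THP-1 peaks that were remote in each decile of -log10 q, fold enrichment and width, decile 1 being the lowest, with exact 95% binomial intervals. The share declines from 13.0% in the second to 2.58% in the tenth decile of -log10 q, and rises from 0.763% to 12.8% between the first and eighth deciles of fold enrichment.

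Within the remote peaks, median width and fragments changed little with distance, while median fold enrichment rose. The 635 peaks with a gap of 20 to 30 kb had a median width of 550 bp, a median fold of 4.18 and a median of 20 fragments. The 565 peaks with a gap of 100 to 500 kb had medians of 548 bp, 4.70 and 18 fragments, and the 80 peaks beyond 500 kb had 521 bp, 4.70 and 18 fragments. Local background declined over these classes, from a median of 2.31 times the lowest to 1.59 and 1.56. The share with a -log10 q of at least 10 was 25.2% (21.9 to 28.8) in the nearest class and 31.2% (21.3 to 42.6) in the farthest, with overlapping intervals.

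Of the 13650 stretches of at least 40000 bp between consecutive M2 peaks, 1714 or 12.6% held a remote peak. In 1176 of them there was exactly 1, in 372 there were 2, in 156 there were 3 to 5 and in 10 there were more. The stretches with a remote peak had a median length of 171.1 kb and those without one 81.1 kb. A longer stretch has more room for a peak, and numbers per length of stretch were not compared.

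Remote peaks lay singly or in pairs more often than in groups. When remote peaks at most 50 kb apart were joined, 1498 stood alone, which is 59.6% (57.7 to 61.5), and 338 pairs and 98 clusters of at least 3 were formed. The clusters held 339 remote peaks, 13.5% (12.2 to 14.9). They spanned a median of 14.8 kb (2.56 to 93.2), and 94 of the 98 had no M2 peak between their members. By the rules an M2 peak can lie between neighbouring members only if these are over 40000 bp apart. Joining stops at 50 kb, so the count of 94 was largely fixed in advance. Among M2 peaks far from THP-1 peaks, joined in the same way, 21.9% (21.3 to 22.5) stood alone and 56.0% (55.3 to 56.8) were in clusters of at least 3. The largest cluster of remote THP-1 peaks had 7 members and the largest of the M2 peaks 31. The M2 set is the larger, and clusters were not counted in sets of equal size.

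The distance from a remote peak to the nearest other remote peak had a median of 122.8 kb and a lower quartile of 1.64 kb. In 578 cases, 23.0% (21.4 to 24.7), it was at most 1 kb. With THP-1 peaks of any kind counted, the median distance to a neighbour was 32.1 kb, against 2.15 kb for nearer THP-1-only peaks and 1.94 kb for overlapping peaks. The rule keeps remote peaks away from M2 peaks, and so from most THP-1 peaks that overlap these. Part of this contrast was therefore built in. The nearest THP-1 peak was itself remote for 1250 remote peaks, 49.7% (47.8 to 51.7). A peak caller can report a single acetylated domain as several close peaks. Merged within 1000 bp, the 2513 remote peaks made 2210 sites, of which 1935 were single peaks, and only 37 clusters of at least 3 sites remained, the largest of 4 sites.

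**Figure D4:**
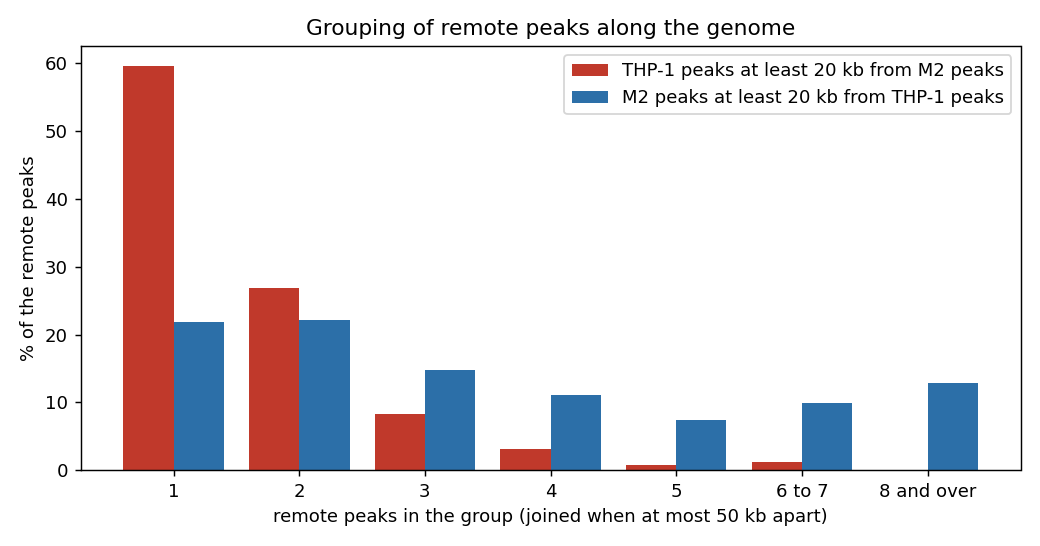
Percentage of remote peaks by the number of remote peaks in their group, with peaks at most 50 kb apart joined, for THP-1 peaks at least 20 kb from M2 peaks (red) and M2 peaks at least 20 kb from THP-1 peaks (blue). Of the THP-1 set 59.6% stood alone, of the M2 set 21.9%.

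Clusters were most numerous on chromosomes 1 and 6, with 14 and 11 of the 98, and chromosome 22 had 0. These chromosomes held 266, 190 and 16 remote peaks, of which 50, 41 and 0 were in clusters. Shares of remote peaks in clusters were not compared between chromosomes. The 10 clusters with the most remote peaks, ties ordered by covered length, are described next. Positions are in hg19, 1-based. No hg19 gene annotation was used here, so the genes named at these positions are background knowledge of where well-known genes lie, and genes named as flanking a cluster are next to each other among protein-coding genes in RefSeq's GRCh38.p14 table. No cluster was assigned to a target gene.

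Of 2 clusters with 7 remote peaks each, the one with the larger covered length lay at chr2:40255536-40270491, in the interval between THUMPD2 and SLC8A1, nearer the latter. SLC8A1 encodes a sodium-calcium exchanger of the plasma membrane. Its 7 peaks covered 6.56 kb of 14.96 kb, with fold enrichments of 4.35, 10.1, 4.39, 5.51, 4.85, 9.55 and 12.1 in genomic order. The summits held 24, 50, 26, 29, 16, 51 and 77 fragments. The nearest M2 peaks lay 246.7 kb to the left and 177.1 kb to the right, and both of these overlapped THP-1 peaks. This was the most isolated of the 10 on its nearer side. Merged within 1000 bp, the 7 peaks formed 2 sites. Merged likewise, the other clusters of the 10 formed 2 to 4 sites each, so the ranking by peaks partly counts close peaks.

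A second cluster of 7 peaks lay at chr1:182268331-182338871, between ZNF648 and GLUL. GLUL encodes glutamine synthetase, which makes glutamine from glutamate and ammonia. The fold enrichments were 3.43, 3.67, 4.84, 3.31, 5.27, 3.94 and 2.96, and the summits held 69, 23, 30, 27, 82, 21 and 14 fragments. The strongest peak, chr1:182306074-182308078, was 2005 bp wide. The whole M2-free stretch around the cluster was 129.9 kb long, and the M2 peaks at both of its ends overlapped THP-1 peaks, so both lists had peaks at the borders and only the THP-1 list between them.

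A cluster of 6 peaks at chr18:21058870-21121631 ran through the neighbouring genes RIOK3, RMC1 and NPC1. NPC1 exports cholesterol from lysosomes, and RIOK3 is an atypical protein kinase. The first peak, chr18:21058870-21061030, had the highest fold of the cluster at 11.2 with 71 fragments. The other 5 had fold enrichments of 4.54, 3.10, 4.48, 4.09 and 4.40 and held 99, 47, 36, 27 and 24 fragments. Between the first peak and the rest lay 2 M2 peaks, so this group of remote peaks was not a single M2-free stretch. The span held 8 THP-1 peaks in all, remote or not.

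At chr15:59691071-59703211, inside FAM81A, 6 peaks covered 4.77 kb of 12.1 kb. Their fold enrichments were 4.44, 3.35, 4.76, 6.98, 5.81 and 4.05, over 18, 16, 16, 55, 60 and 22 fragments. The M2-free stretch was only 59.4 kb, and neither bordering M2 peak overlapped a THP-1 peak. No other THP-1 peak lay within 150 kb of the centre of this cluster.

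Chromosome 6 held 3 of the 10 clusters. The first, chr6:89152726-89205017, lay between CNR1, the cannabinoid receptor of brain, and RNGTT, the enzyme that caps messenger RNA. Its 6 peaks had fold enrichments of 3.42, 4.34, 5.80, 4.61, 4.53 and 4.52 over 11 to 36 fragments. The M2-free stretch around it measured 525.0 kb. The second, chr6:125307488-125336457, lay inside RNF217, which encodes a ubiquitin ligase. Its 5 peaks had fold enrichments of 4.10, 3.65, 3.78, 3.93 and 6.31, the last over 78 fragments. The M2 peak 22.1 kb to its left overlapped a THP-1 peak.

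The third chromosome 6 cluster, chr6:15297477-15390642, lay inside JARID2, a subunit of the Polycomb complex PRC2, which represses developmental genes. Its 5 peaks were spread over 93.2 kb with fold enrichments of 6.83, 9.46, 4.48, 2.81 and 4.41, and 2 M2 peaks lay between them. The 2 leftmost peaks carried the highest folds. The span held 9 THP-1 peaks in all, remote or not, among them a peak that overlapped an M2 peak.

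At chr10:102598267-102651664, between PAX2, a transcription factor of kidney development, and SLF2, a DNA repair factor, 5 peaks had low fold enrichments of 2.72, 2.05, 3.82, 2.69 and 3.03. Their summits nevertheless held 22, 65, 91, 59 and 113 fragments. The local background there had a median of 13.1 times the lowest of the list, the highest of the 10 clusters. Leaving out peaks with a background of at least 5 times the lowest removes 4 of these 5 peaks.

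At chr9:98845650-98872971, between the DNA repair gene ERCC6L2 and HSD17B3, which makes testosterone in testis, 5 peaks had fold enrichments of 5.04, 3.35, 5.92, 5.95 and 4.19 over 12 to 33 fragments. The M2 peaks lay 20.7 kb to the left and 28.4 kb to the right. The tenth cluster, chr3:17936189-17949588, had 4 peaks between TBC1D5, a regulator of endosomal trafficking, and SATB1, a chromatin organiser of lymphoid and progenitor cells. It covered 7.13 kb, the most of any cluster, with fold enrichments of 8.24, 9.79, 3.48 and 8.22 over 40, 42, 19 and 38 fragments. Its last peak was 3237 bp wide.

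**Figure D5:**
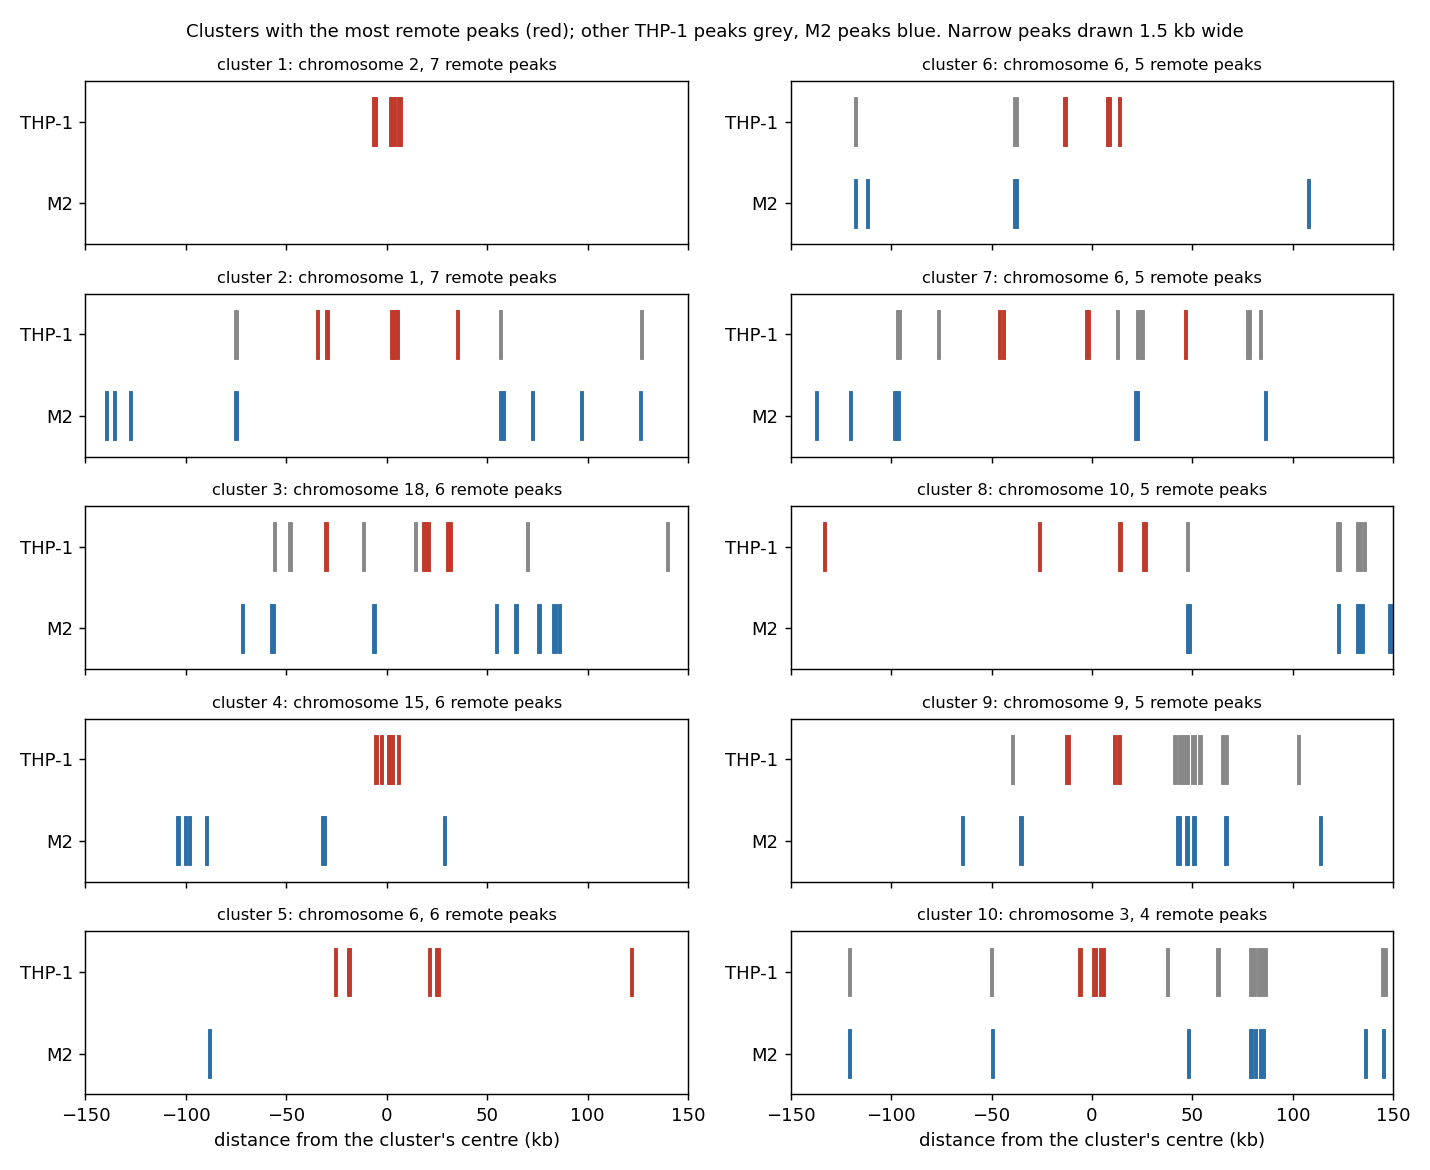
Maps of the 10 clusters with the most remote peaks, drawn to 150 kb on each side of the cluster's centre. Remote THP-1 peaks are red, other THP-1 peaks grey and M2 peaks blue, with peaks under 1.5 kb drawn 1.5 kb wide. Clusters 3 and 7 have M2 peaks between their remote peaks, and cluster 1 has no M2 peak in view.

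The 5 remote peaks of highest fold enrichment had a -log10 q of 41.3 to 72.2. The highest was chr7:155786114-155787834, 16.2-fold over 76 fragments, between SHH, a signalling protein of embryonic patterning, and RNF32. Next came chr3:63663618-63666379 (15.3-fold, 87 fragments), between SNTN and C3orf49, with no M2 peak for 1488 kb on its left. The others were chr9:108519181-108520783 in TMEM38B (15.2-fold, 71 fragments), chr5:99633934-99636092 between CHD1 and FAM174A (15.1-fold, 86 fragments) and chr4:142094643-142095818 in RNF150 (15.1-fold, 46 fragments). TMEM38B encodes a potassium channel of the endoplasmic reticulum, and CHD1 a chromatin remodeller. The nearest M2 peaks lay 31.0, 81.9, 60.9, 98.2 and 33.0 kb from these 5 peaks.

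The widest remote peak, chr5:147306556-147311500, spanned 4945 bp between C5orf46 and SPINK5 at 6.77-fold. It was followed by chr11:47023029-47027742 in CSTPP1 (4714 bp, 10.9-fold). The third, chr6:131687350-131691822, lay between AKAP7 and ARG1, the gene of arginase 1, a marker of alternatively activated macrophages in mice. It was 4473 bp wide at 3.30-fold over 74 fragments, with the nearest M2 peak 84.2 kb away. Next were chr9:100204528-100208833 in TDRD7 (4306 bp, 12.0-fold) and chr4:189799006-189803170 (4165 bp, 8.59-fold).

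The remote peak farthest from any M2 peak was chr4:92328885-92329229 in CCSER1, 1937 kb away, a peak of the least width with 13 fragments at 4.19-fold. The third farthest, chr16:61921443-61922542 in CDH8, a neuronal cadherin, was 1760 kb away and stronger, at 7.69-fold over 38 fragments. The rest of the 5 farthest, chr7:61968739-61969700, chr11:51580345-51580695 and chr11:51573389-51573735, lie beside centromeres. The first of these had 575 fragments at a fold of only 1.30, the next 365 at 1.59 and the last 15 at 3.64.

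Of the 3 peaks beside centromeres, the first 2 were part of a small set with very high background, and the last, at 1.92 times the lowest background of the list, was not. At 10 remote peaks on 6 chromosomes the local background was at least 100 times the lowest of the list, with 318 to 687 fragments over the summit and fold enrichments of 1.30 to 2.03. The highest was chr1:121484202-121485413, with 687 fragments at 1.47-fold and no M2 peak for 21405 kb on its right. Distances to M2 peaks count unsequenced gaps, where no peak can be called, so this length is not all sequence lacking M2 peaks. A compact cluster of 4 at chr19:27731875-27738827 belonged to the same set. Each of the 10 had a stretch of at least 1 Mb without an M2 peak on at least 1 side. The share of all remote peaks with such a stretch was not counted, so this does not set the 10 apart. Among overlapping THP-1 peaks 71, or 0.300% (0.234 to 0.378), had such a background, against 0.398% (0.191 to 0.731) of remote peaks, with overlapping intervals. Among nearer THP-1-only peaks 0 of 5248 did. That count allows a share of up to 0.0572% by a limit of 3 counts and 0.0703% by the exact interval. At a limit of 50 times the lowest the order was reversed. There 643 overlapping peaks, 2.72% (2.51 to 2.93), were counted, against the same 10 remote peaks. Whether repeated sequence has a part in these 10 was not tested. Without the 262 remote peaks whose background was at least 5 times the lowest, 2251 remained, with a median fold of 4.46. These were 14.3% (13.8 to 14.9) of the 15688 THP-1 peaks below that background, and among chromosomes with at least 200 peaks in that shorter list, chromosome 4 had the highest share, 22.6% (19.7 to 25.7).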

How the data were processed

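The members and lists were chosen with earlier results of these data known. Each H3K27ac library, 1 per cell type, is represented by 1 peak list of the authors, with no header and read in the narrowPeak column order. Per the submitters' processing notes, Bowtie2, MACS2 version 2.1.0 and hg19 were used, without settings or the use made of the input libraries. Each peak carries its fold enrichment over local background, a ratio at the summit, and its −log10 p and −log10 q, as deposited by the authors. The deposited score restates the −log10 q, multiplied by 10 and cut to a whole number, and was left aside. The lowest −log10 q was 1.30 in the THP-1 and 1.31 in the M2 list. Peak names start at number 1253 in the THP-1 and 2468 in the M2 list, with 0 numbers missing afterwards. What the lower numbers were is not known, and an M2 peak among them would change a gap.

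Gaps are bases between peak edges, computed in Python 3.11.15 with numpy 2.4.6, pandas 2.3.3 and scipy 1.17.1. Fragments and background were solved from fold enrichment, taken as pileup plus 1 over background plus 1, and the Poisson p-value. A single whole-number solution was found for all 31444 THP-1 peaks, and the lowest background was 1.77 fragments. These are inferred values, not counts the authors gave. Gap, cluster and fragment steps were tested on simulated data. Shares carry exact binomial intervals, rates exact Poisson intervals and medians binomial order-statistic intervals, all at 95% and for counting error only. Regions named are the 10 clusters with the most remote peaks and the 5 peaks of highest fold, of largest width and of largest gap. No marker check of the cell types was made, because no hg19 annotation was used here. No sequence is shown for the same reason.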

Additional observations from a re-analysis of the deposited data

How the results depend on the processing

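The limits are those of 1 library per cell type and of lists that depend on calling thresholds: a site below threshold in M2 counts as free of M2 signal. Merging within 1000 bp and both uses of the background limit were chosen after the data were seen. With a distance between summits, all 6 results stayed within the counting interval of the values above, or, for the number of peaks (2602), within 1.5 times. A gap of at least 10000 bp gave 3675 remote peaks, 11.7% of the list, with 16.4% in clusters of at least 3 and a highest chromosome share of 19.1% on X. A gap of at least 50000 bp gave 1240, or 3.94%, with 11.5% in clusters, a median fold of 4.53 and a highest share of 9.22% on chromosome 4. Counting only M2 peaks with a −log10 q of at least 10 gave 5061 remote peaks, 16.1%, with 23.8% in clusters, medians of 560 bp and 4.28-fold and 27.1% on X. An M2 list as short as the THP-1 list gave 5564, 17.7%, with 24.98% in clusters, 562 bp, 4.28-fold and 29.3% on X. By the rule, leaving out M2 peaks can only add remote peaks or keep their number, so the direction of these changes was fixed. Keeping only THP-1 peaks with a −log10 q of 10 or more left 644, 4.86%, with 5.43% in clusters, 916 bp, 6.30-fold and 9.96% on X. With peaks of high background left out of the whole THP-1 list, 14.3% of the rest were remote, with 11.8% in clusters, 4.46-fold and 22.6% on chromosome 4. With those left out of the remote peaks alone, the latter made up 7.16% of the full list, again with 11.8% and 4.46-fold. The share in clusters also moved with their definition: 8.56% when joined within the shorter distance customary for stitching enhancers, 20.02% within 100000 bp, 2.07% for clusters of at least 5, 23.5% when joined within an M2-free stretch and 5.25% after merging within 1000 bp. No paired analysis was possible because each group has 1 library.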

Other observations

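A few further clusters at known genes were singled out after their values were seen. At chr5:1304492-1314927, between TERT, the catalytic subunit of telomerase, and CLPTM1L, 4 remote peaks covered 5.32 kb of 10.4 kb. Their fold enrichments ran from 3.85 to 9.11 over 13 to 84 fragments, and the nearest M2 peaks lay 135.6 kb to the left and 29.5 kb to the right. At chr1:77837930-77882440, inside AK5, an adenylate kinase gene, 4 peaks had fold enrichments of 3.58 to 6.87 within an M2-free stretch of 162.4 kb. At chr16:54008049-54044685, inside FTO, an RNA demethylase gene, 4 peaks had fold enrichments of 3.23 to 5.63, and both bordering M2 peaks overlapped THP-1 peaks. At chr5:56701312-56708661, between GPBP1 and ACTBL2, 4 peaks filled 64.6% of 7.35 kb.

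Among stretches without an M2 peak, the one at chr8:40062565-41010391 held 7 remote peaks over 0.948 Mb, as many as the 2 largest clusters, but spread too far apart to form a single cluster. A stretch of 1.57 Mb at chr3:62175167-63748249 held 6, among them the 15.3-fold peak between SNTN and C3orf49.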
